A study of Mus musculus with 19 samples.

Results

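The genes described here encode cytokine-activated transcription factors of the STAT family and the SOCS-type inhibitors that feed back on the same pathway: Stat3, Stat4, Stat5a, Stat5b, Stat6, Socs1, Socs2, Socs3 and Cish. They are 9 of 18193 genes named on the arrays. Each gene was taken by name, and its values come from 1 probe set, a group of short probes for 1 transcript, chosen as the one with the highest mean over all 19 arrays among those annotated with that symbol alone. All 9 were named, 8 passed the filter on low values and were tested, and Socs1 was not tested because it stayed at the floor of the scale on every array.

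The study hybridised RNA of sorted CD4+ T cells from mice to Affymetrix arrays, with 1 array for each sample. All mice were C57BL/6J, and cells of immunized mice came from lymph nodes. The labels repeat 1 protocol throughout: OT-II cells, whose transgenic receptor sees an ovalbumin peptide, and which carried 1 Bcl6yfp reporter allele, were transferred into hosts, which received NP-OVA, a hapten coupled to ovalbumin, in CFA, an adjuvant, under the skin. That protocol may not describe the naive and Bcl6+/+ samples. Follicular helper cells were gated as CXCR5hi PD-1hi and split by the reporter into YFP-positive (n = 4; day 7 for replicates 1 to 3 and day 10 for replicate 4) and YFP-negative (n = 4; day 7 for replicates 2 and 3 and day 10 for replicates 1 and 4). Activated cells outside that gate were CXCR5lo PD-1lo (n = 3, day 7). CXCR5hi PD-1hi cells not split by the reporter were of Bcl6yfp/+ genotype (n = 3, day 7) or Bcl6+/+ genotype (n = 3; day 10 for replicates 1 and 2 and day 7 for replicate 3). Naive cells (n = 2) were CD4+ CD44lo CD62Lhi and were sorted from spleens of mice that had not been immunized. Neither the ages of the mice nor a statement that each array of a group had its own animal was found in the labels.

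Cytokine receptors of T cells carry Janus kinases, which phosphorylate STAT proteins. The phosphorylated STATs pair up, enter the nucleus and bind a short palindrome in target genes. CISH and the SOCS proteins are themselves induced by STATs and block the receptor, the kinase or the STAT docking site, so their transcripts serve as a readout of recent cytokine signalling as well as a brake. In CD4+ T cells, IL-2 acting through STAT5 is known to restrain the follicular helper program, while IL-6 and IL-21 acting through STAT3 are known to favour it.

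The promoters of the feedback genes are shown first, since the STAT palindrome TTCNNNGAA, which is its own reverse complement and so reads the same on both strands, is the sequence through which this feedback is known to run. The RefSeq promoter table (assembly GRCm38.p6, 250 bases before to 50 after each annotated start) held 11 windows for 8 of the 9 genes and none for Socs2. Cish had 2 matches, TTCCTGGAA at bases 1 to 9 and TTCTTGGAA at bases 12 to 20 counted from the annotated start, 2 bases apart, and Socs3 had 1 match, TTCTTAGAA at bases -154 to -146. The capitals below mark these matches, in the stretch chr9:107296559-107296688 on the plus strand for Cish and chr11:117969467-117969566 on the minus strand for Socs3.
Cish: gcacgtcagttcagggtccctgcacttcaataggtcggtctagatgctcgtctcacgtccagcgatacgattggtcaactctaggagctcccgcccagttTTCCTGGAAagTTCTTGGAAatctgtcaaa
Socs3: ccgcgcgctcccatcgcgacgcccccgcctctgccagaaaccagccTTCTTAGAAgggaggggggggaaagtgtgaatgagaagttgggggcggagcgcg
Of all 32851 windows in the table, 8.3% held the palindrome and 0.457% held it at least 2 times. The first Cish match also fits the narrower form TTCCTNGAA, searched on both strands, which 1.59% of windows held. Of the 8 genes with a window, only these 2 held the palindrome, and the window of the feedback gene Socs1 held 0 matches. These matches describe letters in a window and show no binding.

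Values are log2 expression values that the authors made with GCRMA, a method that corrects each array for background and summarises the probes of a probe set. The scale has its floor near log2 2, and probe sets that reached log2 4 on 2 or more arrays were kept. Array medians ran from 2.4 to 2.99, and precision is limited by how many arrays a group has. The arrays fell into 7 sets that appear to have been normalized separately, since the sorted values of arrays differed on average by 0.0483 or less inside a set and by 0.0666 or more across sets. Sets 1, 2 and 3 each joined the CXCR5lo PD-1lo array of that replicate number with its counterparts from both YFP groups. Replicate 4 of both YFP groups shared set 4 with the first naive array, and the second naive array shared set 5 with Bcl6yfp/+ replicate 1. Replicates 2 and 3 of both genotypes made up set 6, and Bcl6+/+ replicate 1 stood alone as set 7. Cd4 read 13.29 to 14.34 on all arrays, and the Bcl6 probe set read 13.7 to 14.62 in the 2 YFP groups, 12.3 to 13.02 in CXCR5lo PD-1lo cells and 11.44 and 11.52 in naive cells. Xist, which only female cells express, was at 13.01 to 14.07 on 9 arrays and at 1.97 to 2.15 on the other arrays, among them YFP-negative replicate 1, both replicates 4 of the YFP groups, naive replicate 2 and all 6 arrays of the genotype groups.

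Cish, the founding member of the SOCS family and a known STAT5 target, was the member with the widest span of group means, 5.72 on the log2 scale. The gene lies at chr9:107296659-107302784 and was read by probe set 1448724_at. It read 8.34 and 7.38 in naive cells and 8.31, 7.56 and 7.64 in CXCR5lo PD-1lo cells. It read 2.16, 2.19, 2.57 and 2.7 in YFP-negative cells and 2.17, 2.09, 2.2 and 2.1 in YFP-positive cells. Cish was therefore at the floor on all 8 arrays of the YFP groups, and no array of those groups overlapped with the naive or CXCR5lo PD-1lo arrays. In cells not split by the reporter it read 3.21, 2.21 and 2.3 for Bcl6yfp/+ and 6.05, 3.11 and 2.23 for Bcl6+/+. Among these, Bcl6+/+ replicate 1 stood apart, still below every naive and CXCR5lo PD-1lo array.

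**Figure D1:**
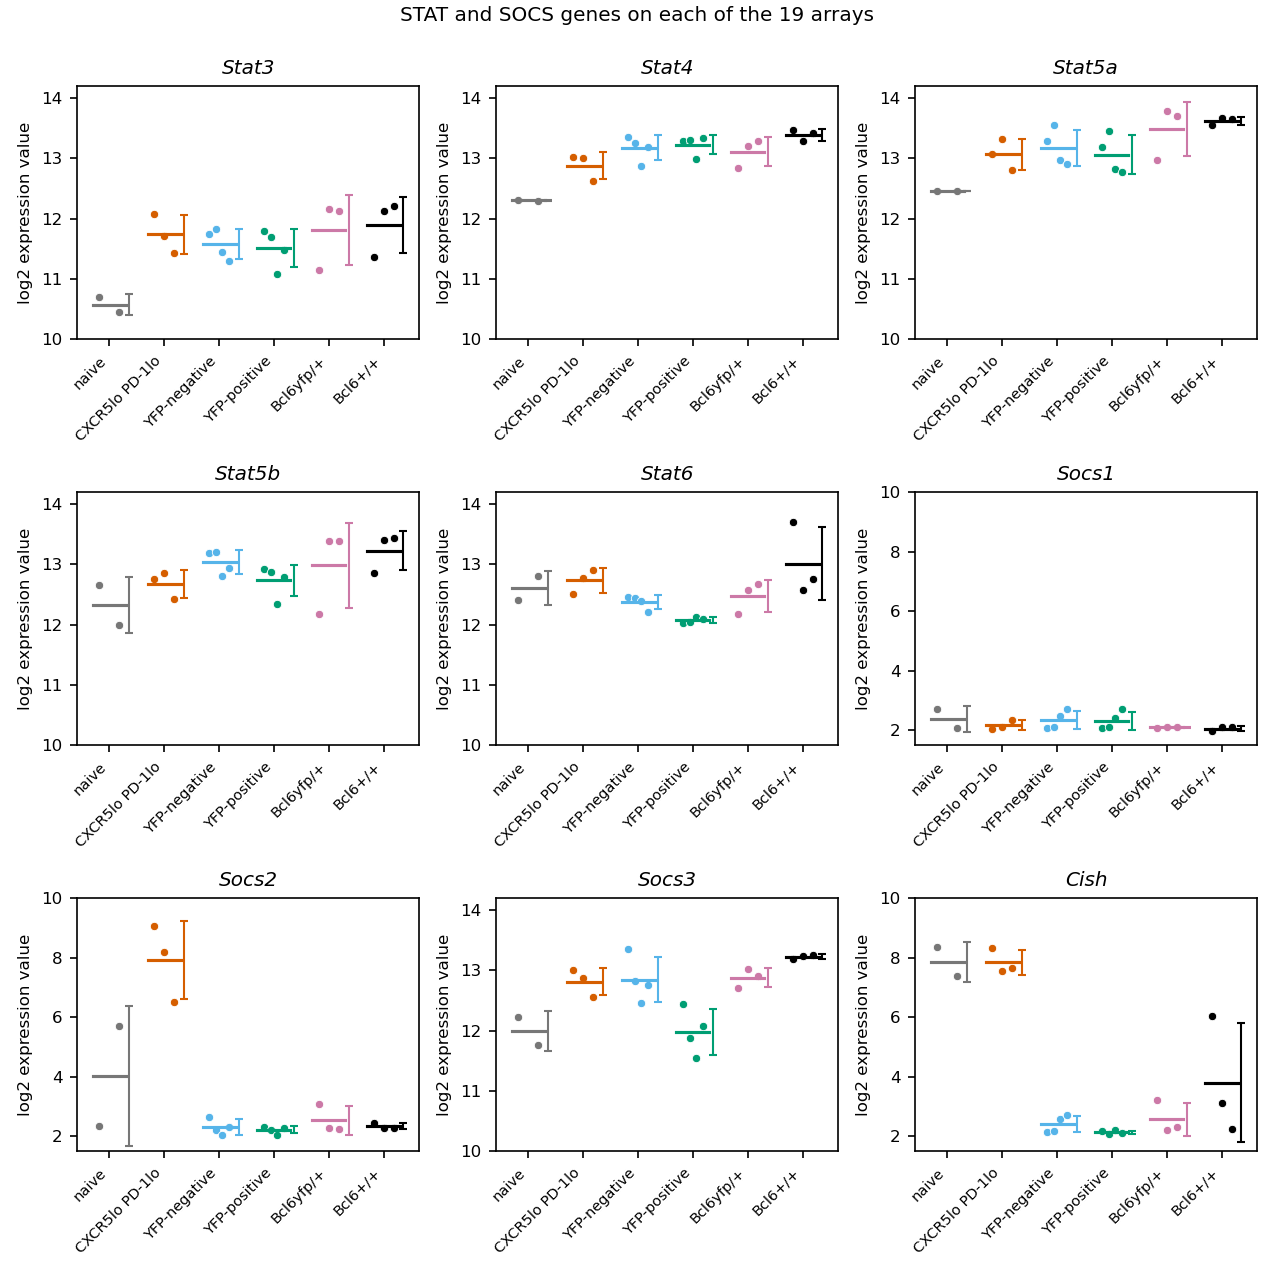
Log2 expression value (vertical axis) of the 9 STAT and SOCS genes in the 6 groups, 1 point per array, with the group mean as a horizontal line and the SD (n = 2 to 4) as the bar to its right. The vertical axis of Socs1, Socs2 and Cish covers lower values than that of the other genes. Cish is high in naive and CXCR5lo PD-1lo cells, Socs2 in CXCR5lo PD-1lo cells, Socs1 lies at the floor throughout, and the other 6 genes stay between 10.45 and 13.79 on every array.

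Group means were compared with limma across all 9930 genes tested, and differences with an adjusted p under 0.05 are termed called. SE is the standard error of a fitted difference. Cish was lower in YFP-positive than in CXCR5lo PD-1lo cells by a log2 difference of -5.69 (SE 0.61, adjusted p 6.9e-06). Within replicate numbers 1, 2 and 3, which are also the normalization sets, the difference was -6.14, -5.47 and -5.43. Against the same 3 CXCR5lo PD-1lo arrays, YFP-negative cells differed by -5.43 (SE 0.61, adjusted p 1.5e-05), and within sets by -6.15, -5.36 and -5.07. Fitted differences of this size place Cish at rank 42 and 38 from the lowest of the 9930 genes. Since 1 side of each lies at the floor, their size depends on where the floor is. Cish reached log2 4 on 6 arrays, those of the naive and CXCR5lo PD-1lo groups and Bcl6+/+ replicate 1. It passed the filter through them, so the filter and these tests are not independent.

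The comparisons with naive cells share the 2 naive arrays. Cish was lower than in naive cells by -5.72 in YFP-positive cells (SE 0.69, adjusted p 9.4e-06), by -5.46 in YFP-negative cells (SE 0.69, adjusted p 1.8e-05) and by -4.68 in the mean of the 2 genotypes (SE 0.65, adjusted p 4.3e-05). Within set 4, the differences of YFP-positive and YFP-negative replicate 4 from naive replicate 1 were -6.24 and -5.64. Between CXCR5lo PD-1lo and naive cells the difference was -0.03 (95% interval -1.56 to 1.51, adjusted p 0.98), which shows neither a change nor that the levels are alike. Across the 6 groups ordered by mean, the only neighbours of Cish that did not overlap were CXCR5lo PD-1lo and Bcl6+/+, 4.03 apart.

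Socs2, known as a brake on growth hormone signalling and also a STAT5 target, was high in 1 group. The gene lies at chr10:95383903-95417321, and its probe set, 1418507_s_at, is of a type whose probes can match more than 1 transcript. CXCR5lo PD-1lo cells read 9.07, 8.18 and 6.5, and naive cells 2.35 and 5.69. All 14 arrays of the other 4 groups lay between 2.04 and 3.1. Socs2 thus reached log2 4 on 4 arrays and passed the filter through CXCR5lo PD-1lo cells and naive replicate 2. The filter and the tests against CXCR5lo PD-1lo cells are therefore not independent. The CXCR5lo PD-1lo arrays did not overlap with any other group, and the 2 naive arrays disagreed by more than 3 log2 units. Of the 5 other Socs2 probe sets none was kept, and the best of them, 1449109_at, reached 4.29 on 1 CXCR5lo PD-1lo array and a mean of 3.46 in that group against 2.23 to 2.44 elsewhere.

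YFP-positive cells differed in Socs2 from CXCR5lo PD-1lo cells by -5.7 (SE 0.61, adjusted p 7.1e-06), and by -6.75, -5.96 and -4.45 within sets 1, 2 and 3. YFP-negative cells differed by -5.61 (SE 0.61, adjusted p 1e-05), and by -6.42, -5.97 and -4.46 within the sets. As for Cish, 1 side of these differences lies at the floor, and their size depends on where it is. The SE pools the spread of all groups, while the CXCR5lo PD-1lo arrays alone had an SD of 1.31. CXCR5lo PD-1lo cells were 3.9 above naive cells (SE 0.73, adjusted p 0.0019), a call that is lost when only those 5 arrays are fitted (adjusted p 0.11). The value turns on which naive array is used: it was 5.56 without naive replicate 2 and 2.23 without naive replicate 1. Socs2 in YFP-positive against naive cells was -1.8 (SE 0.69, adjusted p 0.061), -3.47 without naive replicate 1 (adjusted p 0.001) and -0.13 without naive replicate 2.

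Naive replicate 2, the naive array with Socs2 at 5.69, also read higher for Foxp3, the regulatory T cell factor, at 8.17 against 5.39 in naive replicate 1, and lacked Xist. Its RNA was isolated with TRIzol or a column kit per the labels, as for the genotype groups, while the other arrays list TRIzol alone. The part of these features in the Socs2 value was not tested.

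**Figure D2:**
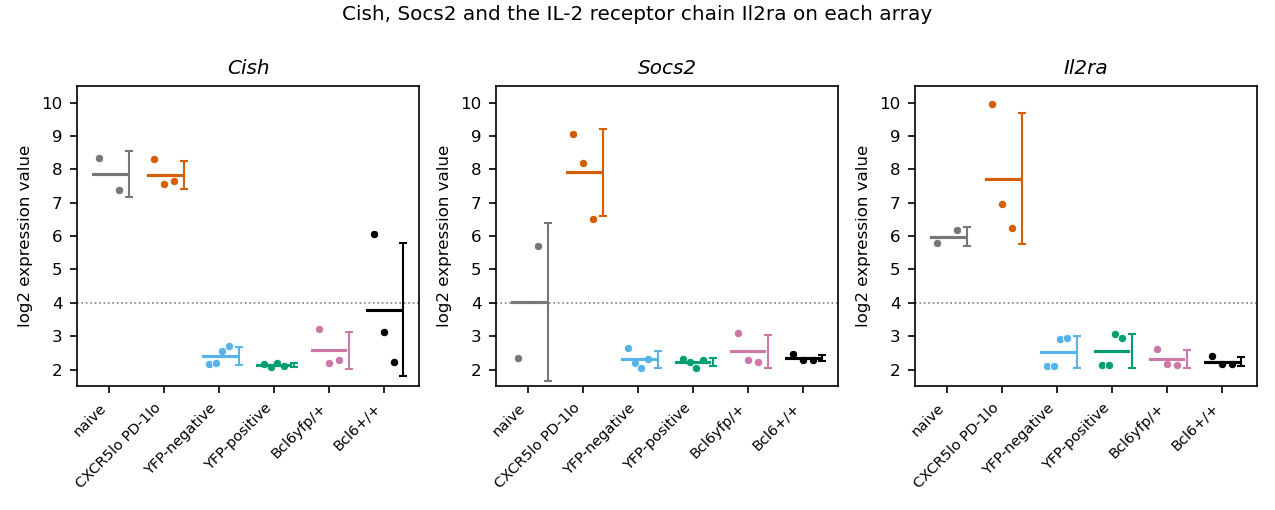
Log2 expression value (vertical axis) of Cish, Socs2 and Il2ra in the 6 groups, with 1 point per array, the mean as a line, the SD as the bar to its right and the filter at log2 4 as a dotted line. All 3 genes lie under log2 4 on every YFP-positive, YFP-negative and Bcl6yfp/+ array and above 6 on every CXCR5lo PD-1lo array.

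Cish and Socs2 correlated over the 19 arrays at r = 0.77, a description that rests on groups and normalization sets that all genes share. By the same measure, the genes most like Cish were Rrad (r = 0.983), Tdrp (r = 0.969) and Itgb3 (r = 0.968), and the genes most like Socs2 were Trgv4 (r = 0.949), AA467197 (r = 0.934) and Lmna (r = 0.933). The upstream receptor chain Il2ra, which gives the IL-2 receptor its high affinity, read 9.95, 6.97 and 6.24 in CXCR5lo PD-1lo cells and 5.78 and 6.18 in naive cells. It lay between 2.12 and 3.06 on the 8 arrays of the YFP groups, without overlap. Like Socs2, it passed the filter only through arrays of the CXCR5lo PD-1lo and naive groups. Il2ra differed from CXCR5lo PD-1lo cells by -5.15 in YFP-positive cells (SE 0.6, adjusted p 1.9e-05) and by -5.19 in YFP-negative cells (SE 0.6, adjusted p 2.1e-05). The shared IL-2 and IL-15 receptor chain Il2rb did not pass the test against CXCR5lo PD-1lo cells, at 0.06 (SE 0.35) for YFP-positive and -0.18 (SE 0.35) for YFP-negative cells.

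Markers of other cell types and states also differed between these groups. The 4 naive T cell markers Ccr7, Il7r, Klf2 and S1pr1 were all called lower than in CXCR5lo PD-1lo cells in YFP-positive (median -6.16) and in YFP-negative cells (median -3.46). Their mean per array was 12.15 to 12.9 in naive, 12.09 to 12.38 in CXCR5lo PD-1lo, 7.98 to 9.45 in YFP-negative and 4.69 to 6.93 in YFP-positive cells, so this list was high in the same groups as Cish. Of 5 Th1 and cytotoxic markers, 4 were at log2 8 or more in the mean of CXCR5lo PD-1lo cells (mean of the list 8.9 to 9.76 on single arrays) and 0 in naive cells (2.17 to 2.69), where Cish read 8.34 and 7.38, and the YFP groups had 1 (2.91 to 4.04). Of the 6 B and plasma cell markers named, Cd79b read 5.26, 5.3 and 5.36 in CXCR5lo PD-1lo cells and at most 2.81 elsewhere, while Cd79a stayed at or under 2.77 on every array. The list's mean was 3.67 to 4.11 on CXCR5lo PD-1lo arrays, 2.22 to 3.39 on YFP-positive and 2.26 to 4.66 on YFP-negative arrays. Jchain, a plasma cell gene, was highest on YFP-negative replicate 1 at 12.42, an array with Cish at 2.16 and Socs2 at 2.66, and read 10.53, 7.91 and 7.72 in CXCR5lo PD-1lo cells. Lyz2, a myeloid gene, read 10.98 on that same YFP-negative array, 6.73 on YFP-positive replicate 1 and 6.76 on CXCR5lo PD-1lo replicate 1. The part of all these transcripts in the Cish and Socs2 differences was not tested. In sorted bulk samples such as these, fewer cells that express a gene and less RNA per cell cannot be told apart.

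Socs3, the inhibitor known for blocking signals through the IL-6 receptor chain gp130 and hence STAT3, had the largest difference between YFP-positive and YFP-negative cells among the members. It lies at chr11:117966079-117970336 and was read by probe set 1455899_x_at. It read 12.44, 11.87, 11.54 and 12.07 in YFP-positive cells and 13.35, 12.82, 12.45 and 12.76 in YFP-negative cells. Every YFP-positive array was below every YFP-negative array, and within replicate numbers 1 to 4 the differences were -0.91, -0.95, -0.92 and -0.69. The fitted difference was -0.87 (SE 0.22, p 0.0013, adjusted p 0.17 in limma), which is not called.

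The replicate numbers were taken to pair the samples, since deviations of same-numbered arrays correlated. Same-numbered arrays of the YFP groups also share a normalization set, so a shared origin and shared processing cannot be told apart. With the number as a block the same Socs3 difference had an SE of 0.11 and an adjusted p of 0.027. In replicate 1 the YFP-positive array is from day 7 and the YFP-negative array from day 10, and Xist was at 13.77 and 1.97. Without that pair the blocked difference was -0.85 (adjusted p 0.019), an alternative chosen after seeing the data. The other 2 Socs3 probe sets gave -0.95 (SE 0.23) and -1.17 (SE 0.26). Of 8 members tested, 0 were called between the YFP groups (1 at an unadjusted p under 0.05), against 0.121% of all genes, and with the block 1 was called, against 2.7%. Socs3 and Stat6 were the 2 members without overlap, as 3.89% of all genes were.

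Other lists differed between the same groups. Mki67, a proliferation marker, read higher in YFP-positive than in YFP-negative cells within each number, at 14.05 against 11.5, 13.64 against 12.51, 14.33 against 12.96 and 12.12 against 10.29. Of the 5 cell cycle genes tested 0 were called, with a median difference of 2.77. Of 4 naive T cell markers 2 were called lower in YFP-positive cells (median -3.02): Klf2 at -3.67 (adjusted p 0.0019) and S1pr1 at -3.33 (adjusted p 0.012). The part of these in the Socs3 difference was not tested.

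**Figure D3:**
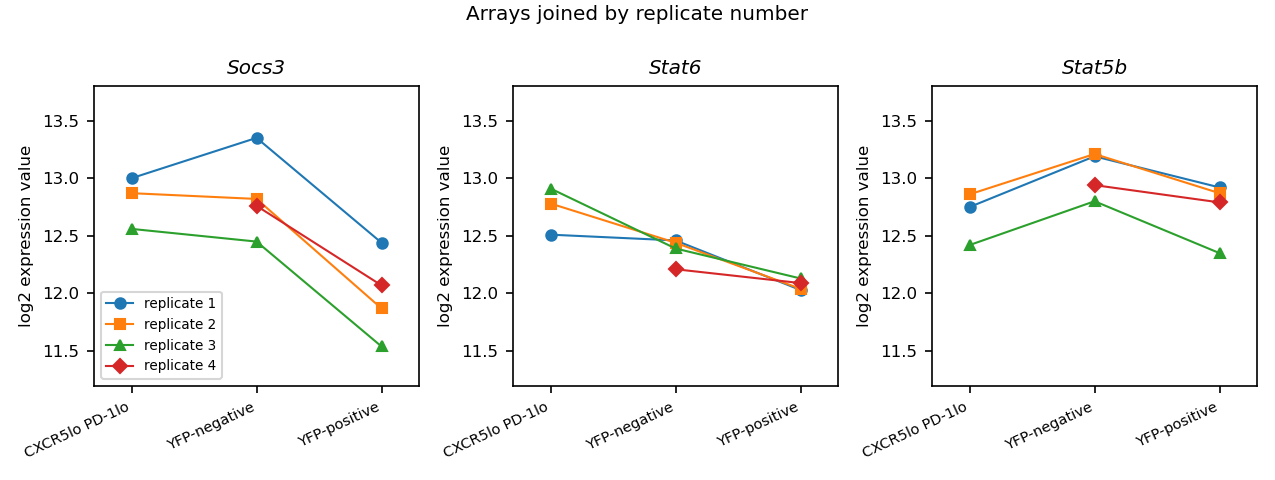
Log2 expression value (vertical axis) of Socs3, Stat6 and Stat5b in CXCR5lo PD-1lo, YFP-negative and YFP-positive cells, with arrays of 1 replicate number joined by a line. Socs3 falls from YFP-negative to YFP-positive cells by 0.69 to 0.95 within each of the 4 numbers, and replicate 4 has no CXCR5lo PD-1lo array.

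Against the other groups, Socs3 in YFP-positive cells was not called different from naive cells, which read 12.23 and 11.76. The difference was -0.02 (95% interval -0.6 to 0.56), or -0.41 beyond the median of all genes, which was itself shifted against naive cells. After median centring it was -0.58 and called (adjusted p 0.049), while the other Socs3 probe sets gave -0.26 (SE 0.28) and 0.52 (SE 0.32). CXCR5lo PD-1lo cells read 13, 12.87 and 12.56. YFP-positive cells were lower than these, by -0.83 (SE 0.24, adjusted p 0.037) and by -0.55, -1.01 and -1.03 within sets 1, 2 and 3. With the number as a block the adjusted p was 0.0027. The unblocked call is lost without YFP-positive replicate 2, 3 or 4 or CXCR5lo PD-1lo replicate 1 or 2 (adjusted p 0.083, 0.12, 0.051, 0.12 and 0.13; values between -0.86 and -0.68), and with only these groups fitted (0.091). Without CXCR5lo PD-1lo replicate 3 it was -0.96 with an adjusted p that rounds to 0.05 and lies just under the threshold. Between YFP-negative and CXCR5lo PD-1lo cells the Socs3 difference was 0.04 (95% interval -0.48 to 0.55).

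The unsplit cells read 12.71, 13.02 and 12.9 for Bcl6yfp/+ and 13.18, 13.23 and 13.26 for Bcl6+/+. Socs3 was thus higher on all 6 of these arrays than on any YFP-positive or naive array. Their mean was 1.06 above naive cells (SE 0.26, adjusted p 0.0055), and YFP-negative cells were 0.85 above (SE 0.27, adjusted p 0.037). The first call is lost without naive replicate 2 (0.82, adjusted p 0.11) and under quantile normalization (0.46, adjusted p 0.12). The second is lost without either naive array (adjusted p 0.053 without replicate 1 and 0.36 without replicate 2) and without YFP-negative replicate 1 or 2 (0.098 and 0.063), and under median centring (0.3, adjusted p 0.35), quantile normalization (0.43, adjusted p 0.19), day as a covariate (0.75, adjusted p 0.079) and a fit of only the groups compared (adjusted p 0.1).

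**Figure D4:**
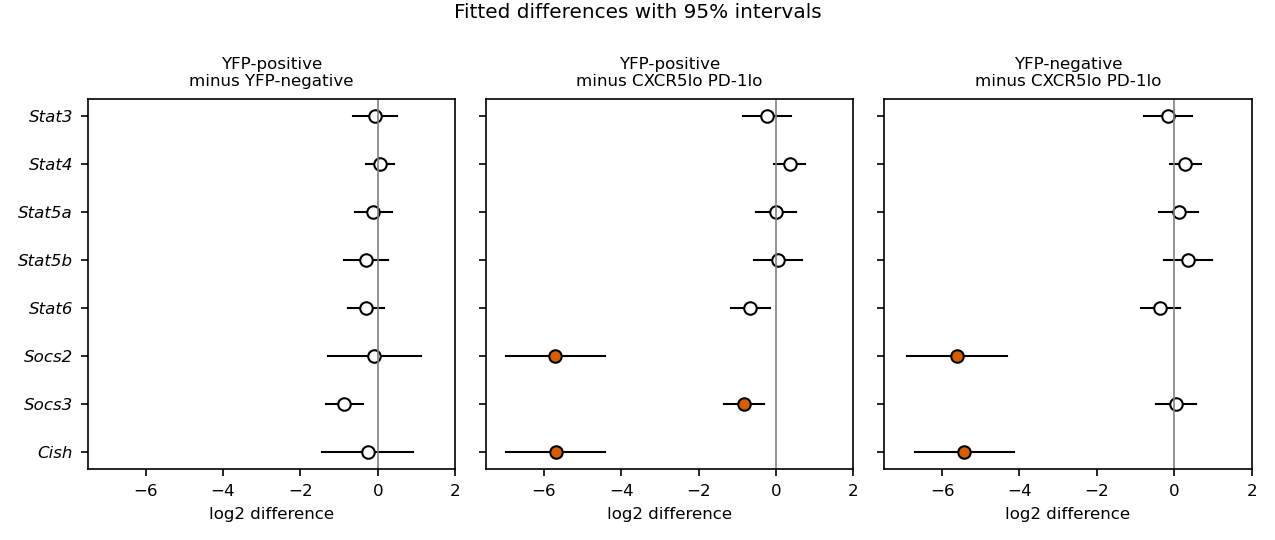
Fitted log2 difference (horizontal axis) of the 8 tested members in YFP-positive minus YFP-negative, YFP-positive minus CXCR5lo PD-1lo and YFP-negative minus CXCR5lo PD-1lo cells. Lines are 95% intervals and orange points have an adjusted p under 0.05 in limma. Cish and Socs2 lie between -5.7 and -5.43 in both comparisons with CXCR5lo PD-1lo cells, and Socs3 lies at -0.87 and -0.83 in the 2 comparisons of YFP-positive cells.

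In the comparisons with CXCR5lo PD-1lo cells, 3 of 8 members were called in YFP-positive cells (Cish, Socs2 and Socs3, all lower), against 10.6% of all genes in either direction, 5.18% higher and 5.39% lower. In YFP-negative cells 2 of 8 were called (Cish and Socs2, both lower), against 6.53% of all genes, 3.13% higher and 3.39% lower. With the number as a block the counts were 5 and 4, against 37.2% and 24% of all genes. Without overlap were 4 members (Cish, Socs2, Socs3 and Stat6) in the first comparison and 3 (Cish, Socs2 and Stat6) in the second, against 22.9% and 18.7% of all genes. The median difference of the members was -0.44 and -0.06, and that of all genes -0.07 and -0.09.

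Socs1, the strongest inhibitor of Janus kinases in the family, gave no measurable signal. It lies at chr16:10783808-10785536, and its only probe set with that symbol alone, 1450446_a_at, read between 1.96 and 2.71 on all 19 arrays. At this floor no level or difference of Socs1 could be detected with this probe set.

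Among the STAT genes, Stat6, which carries the signal of IL-4, was the only one whose YFP-positive arrays lay below both other groups. It lies at chr10:127642955-127660987. It read 12.03, 12.04, 12.13 and 12.09 in YFP-positive, 12.46, 12.44, 12.39 and 12.21 in YFP-negative and 12.51, 12.78 and 12.91 in CXCR5lo PD-1lo cells. The 3 groups did not overlap, with YFP-positive lowest and CXCR5lo PD-1lo highest. The difference of YFP-positive from CXCR5lo PD-1lo cells was -0.66 (SE 0.24, adjusted p 0.098), and with the number as a block -0.64 (SE 0.11, adjusted p 0.005). Its other probe set gave -0.97 (SE 0.24) here and -0.14 (SE 0.22) between the YFP groups, and the mean of both gave -0.82 (adjusted p 0.028). YFP-positive against YFP-negative cells gave -0.3 (SE 0.22, adjusted p 1; 0.1 with the block), with -0.43, -0.4, -0.25 and -0.12 within numbers. Outside these groups Stat6 read 13.71 on Bcl6+/+ replicate 1, against 12.18 to 12.81 on the other 5 genotype arrays and the 2 naive arrays.

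Stat4, which carries the signal of IL-12 toward Th1 cells, lies at chr1:51987106-52107189 and read 12.99 to 13.34 in YFP-positive, 12.88 to 13.36 in YFP-negative and 12.62 to 13.02 in CXCR5lo PD-1lo cells. These groups overlapped. The difference from CXCR5lo PD-1lo cells was 0.35 in YFP-positive cells (SE 0.18, adjusted p 0.29) and 0.29 in YFP-negative cells (SE 0.18, adjusted p 0.52). With the number as a block they were 0.33 (SE 0.07, adjusted p 0.012) and 0.27 (SE 0.07, adjusted p 0.034), and all 6 within-number differences were positive, from 0.26 to 0.38. In the same comparison with YFP-positive cells, 4 of 6 genes known as STAT4 targets were called lower: Tbx21, Ifng, Il18r1 and Il18rap. Of all genes, 5.39% were called lower there. In YFP-negative cells 4 of the 6 were called lower as well, against 3.39% of all genes. The list medians were -5.21 and -4.47. Tbx21 and Ifng are also among the Th1 markers of the sorted groups.

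Stat5a, Stat5b and Stat3 lie next to each other on chromosome 11, at chr11:100859351-100885169, chr11:100780731-100859004 and chr11:100886806-100939594. The 2 STAT5 genes encode near-identical proteins that carry the signals of IL-2, IL-7 and IL-15. Stat5a read 12.78 to 13.46 in YFP-positive, 12.91 to 13.55 in YFP-negative and 12.81 to 13.32 in CXCR5lo PD-1lo cells. Stat5b read 12.35 to 12.92, 12.8 to 13.21 and 12.42 to 12.86 in the same groups. The arrays of these groups overlapped for both genes, and no unblocked comparison among them was called. The differences of YFP-positive from CXCR5lo PD-1lo cells were 0 for Stat5a (95% interval -0.52 to 0.51) and 0.05 for Stat5b (-0.56 to 0.67). Over the same arrays Cish and Socs2, known elsewhere as STAT5 targets, differed by more than 5 log2 units. STAT5 activity was not measured, and its part in those differences was not tested. Between the YFP groups Stat5b read lower in YFP-positive cells within all 4 numbers, by -0.27, -0.33, -0.45 and -0.15 (-0.3, SE 0.27, adjusted p 1 in limma). That difference was called when blocking on the normalization set (SE 0.06, adjusted p 0.02) and not with the replicate number as a block (adjusted p 0.067). The set as a block called 15.5% of all genes between the YFP groups. For Stat5b, YFP-negative cells were above CXCR5lo PD-1lo cells by 0.43, 0.35 and 0.38 within numbers (0.36, adjusted p 0.7; 0.019 with the block).

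Stat3, which carries the signals of IL-6 and IL-21, read 11.08 to 11.79 in YFP-positive, 11.3 to 11.83 in YFP-negative and 11.43 to 12.07 in CXCR5lo PD-1lo cells, with overlap throughout. Its differences were -0.07 between the YFP groups (95% interval -0.64 to 0.5) and -0.23 and -0.16 from CXCR5lo PD-1lo cells (-0.84 to 0.39 and -0.77 to 0.46). The replicate number as a block called none of them (adjusted p 0.7, 0.29 and 0.58).

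The STAT genes were lowest in naive cells with the exception of Stat6. Naive cells read 10.7 and 10.45 for Stat3, 12.31 and 12.3 for Stat4 and 12.46 and 12.46 for Stat5a. All arrays of the other 5 groups were above these values for each of the 3 genes. Stat5b read 12.66 and 12 in naive cells, of which the second lay below every other array, and Stat6 read 12.41 and 12.81, inside the range of the other groups. Stat6 in YFP-positive cells lay below both naive arrays, by -0.53 (SE 0.27, adjusted p 0.16), or -0.93 beyond the median of all genes. It was called under median centring (-1.1, adjusted p 0.018) and quantile normalization (-0.97, adjusted p 0.037). In YFP-negative cells the difference was -0.23 (adjusted p 0.58) and in CXCR5lo PD-1lo cells 0.13 (adjusted p 0.79). The other Stat6 probe set put CXCR5lo PD-1lo cells 0.96 (SE 0.29) above naive cells. On that probe set YFP-positive and YFP-negative cells differed from naive cells by -0.01 and 0.13 (SE 0.27 for both). All genes together were also shifted against naive cells, with a median difference of 0.46 for CXCR5lo PD-1lo, 0.39 for YFP-positive, 0.38 for YFP-negative and 0.5 for the mean of the genotypes, so the differences of Stat3, Stat4, Stat5a and Stat5b that follow are given with what is left beyond that median.

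Stat3 was higher than in naive cells by 1.16 in CXCR5lo PD-1lo (SE 0.35, adjusted p 0.04), 0.93 in YFP-positive (SE 0.33, adjusted p 0.043), 1 in YFP-negative (SE 0.33, adjusted p 0.04) and 1.28 in genotype cells (SE 0.31, adjusted p 0.0053). Beyond the median of all genes this left 0.7, 0.54, 0.63 and 0.77. The first 3 calls are lost when arrays are centred on their medians (0.48, 0.37 and 0.45, adjusted p 0.16, 0.17 and 0.12) and without either naive array (adjusted p 0.098 to 0.27), and each is lost without some single arrays of its own group. The Stat3 call in genotype cells is lost when only the groups compared are fitted (1.28, adjusted p that rounds to 0.05 and is not under it). Without naive replicate 2 that difference was 1.15 and the call is lost too. With no filter, the Stat3 calls in CXCR5lo PD-1lo, YFP-positive and YFP-negative cells are lost (adjusted p 0.056, 0.065 and 0.059). With the mean of the gene's probe sets, those in CXCR5lo PD-1lo and YFP-positive cells are lost (adjusted p 0.06 and 0.083). Stat4 was higher by 0.92 in YFP-positive (SE 0.21, adjusted p 0.0034), 0.86 in YFP-negative (SE 0.21, adjusted p 0.0068) and 0.94 in genotype cells (SE 0.2, adjusted p 0.0018), or 0.53, 0.49 and 0.44 beyond the median. The first 2 of these calls are lost under median centring (0.35 and 0.31, adjusted p 0.21 and 0.3), and the last 2 under quantile normalization (0.45 and 0.36, adjusted p 0.09 and 0.15). The YFP-negative call is also lost without naive replicate 2 (0.86, adjusted p 0.061). Stat4 in CXCR5lo PD-1lo cells gave 0.57 (adjusted p 0.099), of which 0.11 was beyond the median, and -0.11 after centring. Blocking on the normalization set, it was 0.65 (SE 0.12) and called (adjusted p 0.0047). Stat5a was called in genotype cells, at 1.1 (SE 0.26, adjusted p 0.0043), with 0.6 in CXCR5lo PD-1lo and YFP-positive cells and 0.71 in YFP-negative cells not called (adjusted p 0.17, 0.11 and 0.076). Beyond the median these were 0.59, 0.14, 0.2 and 0.34. Blocking on the normalization set, Stat5a was also called in YFP-positive (0.32, adjusted p 0.016) and YFP-negative cells (0.44, adjusted p 0.004), and in the latter with the eBayes trend (0.71, adjusted p 0.048) and the mean of its probe sets (1.42, adjusted p 0.046). Stat5b gave 0.35, 0.4, 0.7 and 0.78 in CXCR5lo PD-1lo, YFP-positive, YFP-negative and genotype cells, none called (adjusted p 0.51, 0.39, 0.15 and 0.064), or -0.11, 0.01, 0.33 and 0.27 beyond the median. The mean of its probe sets was called in YFP-positive (1.16, adjusted p 0.011) and YFP-negative cells (1.37, adjusted p 0.0045). Whether the distance of Stat5a from naive cells differs between these groups was not tested.

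**Figure D5:**
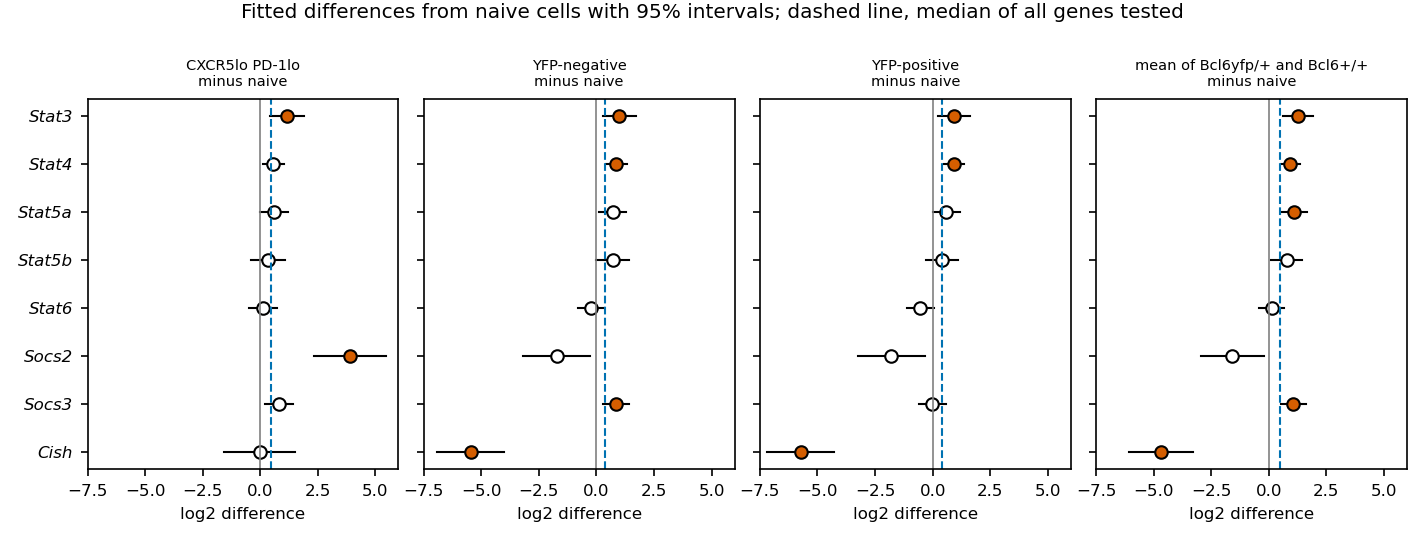
Fitted log2 difference (horizontal axis) of the 8 tested members from naive cells in CXCR5lo PD-1lo, YFP-negative, YFP-positive and genotype cells. Lines are 95% intervals, orange points have an adjusted p under 0.05 in limma, and the dashed line is the median of all 9930 genes, between 0.38 and 0.5. Cish lies between -5.72 and -4.68 in 3 panels and at -0.03 in CXCR5lo PD-1lo cells, and the interval of Stat5b includes the dashed line in all 4 panels.

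Of 8 members, 2 were called in CXCR5lo PD-1lo against naive cells (both higher), against 11.9% of all genes, 10.4% higher and 1.58% lower. In YFP-positive cells 3 were called (2 higher and 1 lower), against 28.8%, 22.4% higher and 6.46% lower. In YFP-negative cells 4 were called (3 higher and 1 lower), against 21.1%, 16.5% higher and 4.64% lower. In genotype cells 5 were called (4 higher and 1 lower), against 34.3%, 28.4% higher and 5.92% lower. Without overlap with naive cells were 5, 6, 6 and 5 members, against 54.2%, 50.1%, 46.6% and 32.3% of all genes. With naive cells from spleen and the rest from lymph nodes, tissue and activation cannot be told apart. CXCR5lo PD-1lo and naive arrays share no normalization set.

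Between the genotypes, Bcl6yfp/+ and Bcl6+/+, limma called 0 of 8 members (0 at an unadjusted p under 0.05), against 0% of all genes. Socs3 and Stat4 did not overlap, as 4.58% of all genes did not. The Socs3 difference was -0.35 (SE 0.26, adjusted p 0.87), and that of Stat4 -0.28 (SE 0.2, adjusted p 0.87). Cish gave -1.22 (SE 0.65, 95% interval -2.6 to 0.15), which fell in size to -0.1 without Bcl6+/+ replicate 1. The day differs between these groups, and Bcl6+/+ replicate 1 shares its normalization set with no other array. For day 10 against day 7, estimated within the 3 groups that hold both days, limma called 0 of 8 members (0 at an unadjusted p under 0.05), against 0.232% of all genes, with differences from -0.2 for Stat5a to 0.65 for Cish. In both YFP groups Xist was at 13.46 to 14.07 on the day 7 arrays and at 1.97 to 2.08 on the day 10 arrays. Day and sex therefore cannot be told apart in the YFP groups, also where day is a covariate. The Bcl6+/+ arrays of both days lacked Xist.

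Ordered by group mean, most neighbouring groups of a member overlapped. Those that did not were, for Stat3 and Stat5a, YFP-positive and naive (0.93 and 0.6 apart), for Stat4 CXCR5lo PD-1lo and naive (0.57), for Stat6 YFP-negative and YFP-positive (0.3), for Socs2 CXCR5lo PD-1lo and naive (3.9), for Socs3 Bcl6+/+ and Bcl6yfp/+ (0.35) and CXCR5lo PD-1lo and naive (0.81), and the Cish pair given above. Over the 19 arrays Stat3 correlated with Stat5a at r = 0.85 and with Stat5b at r = 0.84, and Stat6 with Stat3 at r = 0.02, values that include the shift of all genes between arrays.

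The other genes of the pathway were read from lists of known members. Of the STAT and SOCS genes outside the 9, 5 were tested (Stat2, Socs4, Socs5, Socs6 and Socs7), and none was called among the YFP and CXCR5lo PD-1lo groups. All differences from naive cells given below for these lists include the shift of the median of all genes, 0.38 to 0.5. Against naive cells, Socs5, which is known to act on the IL-4 receptor, was higher by 1.28 in YFP-positive (adjusted p 0.015), 1.66 in YFP-negative (adjusted p 0.0036) and 1.45 in genotype cells (adjusted p 0.0047). Socs7 was called in genotype cells, at 1.01 (adjusted p 0.015).

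Of the 4 Janus kinases, Jak3, the partner of the common gamma chain, had the largest difference from naive cells, with means of 6.73 ± 0.72 (SD, n = 2) in naive, 9.21 ± 0.41 (n = 3) in CXCR5lo PD-1lo, 8.94 ± 0.37 (n = 4) in YFP-negative and 8.69 ± 0.43 (n = 4) in YFP-positive cells. Its differences from naive cells were 2.48, 2.21 and 1.96, all called (adjusted p 0.00037, 0.00035 and 8e-04). Jak2, which serves the IL-12 and interferon gamma receptors, was above naive cells by 0.66 in CXCR5lo PD-1lo and 1.2 in YFP-positive cells, both called. Jak2 was also higher in YFP-negative than in CXCR5lo PD-1lo cells, by 0.58 (SE 0.17), and gave 0.54 in YFP-positive cells (SE 0.17, adjusted p 0.052). Tyk2 was above naive cells by 0.93 in CXCR5lo PD-1lo and 0.88 in YFP-negative cells, both called, and gave 0.64 in YFP-positive cells (adjusted p 0.066). Jak1 was not called in any of these comparisons. Among the 10 phosphatases, PIAS proteins and adaptors, Ptpn11, which encodes SHP2, was called higher in the YFP groups than in CXCR5lo PD-1lo cells, by 1.53 in both (adjusted p 0.00042 and 0.00053), and no other gene of that list was called there.

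Of 16 cytokine receptor genes tested, 4 were called lower in YFP-positive than in CXCR5lo PD-1lo cells and 0 higher: Il2ra, Il7r at -6.64 (SE 0.72), the IL-4 receptor Il4ra at -2.69 (SE 0.24) and Ifngr2 at -3.16 (SE 0.97, groups overlap). In YFP-negative cells 3 were called lower and 0 higher, with Il7r at -3.93 (SE 0.72) and Il4ra at -2.1 (SE 0.24). The median of the list was -0.42 and -0.24 in these comparisons. Il4ra is the receptor upstream of Stat6, and its mean was 11.25 ± 0.17 (SD, n = 2) in naive, 9.94 ± 0.39 (n = 3) in CXCR5lo PD-1lo, 7.84 ± 0.41 (n = 4) in YFP-negative and 7.25 ± 0.18 (n = 4) in YFP-positive cells. The difference between the YFP groups, -0.59, was not called in limma (adjusted p 0.35). Il6st, which encodes gp130, was above naive cells by 1.11 in CXCR5lo PD-1lo cells, by 1.24 in the YFP-positive and by 1.35 in the YFP-negative group, all called, and differed by 0.13 and 0.23 from CXCR5lo PD-1lo cells in the YFP groups (adjusted p 0.84 and 0.75).

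Of 6 cytokine genes tested, 2 were called higher and 2 lower in both YFP groups than in CXCR5lo PD-1lo cells. Among all genes, 5.18% were called higher and 5.39% lower in YFP-positive cells, and 3.13% and 3.39% in YFP-negative cells. In YFP-positive and then YFP-negative cells, Il21, a ligand that signals through STAT3, differed by 3.94 and 3.76, and Il4, which signals through STAT6, by 9.18 and 8.9. Ifng differed by -4.66 and -4.64. Osm, encoding oncostatin M and known as a STAT5 target, differed by -3.58 and -1.77, with means of 9.89 ± 0.4 in CXCR5lo PD-1lo, 8.12 ± 0.33 in YFP-negative and 6.3 ± 0.22 in YFP-positive cells. Between the YFP groups the Osm difference of -1.81 was not called (SE 0.36, adjusted p 0.068). Il21, Il4 and Ifng are also markers of the helper subsets that the sort separates.

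Of the 8 other genes listed as STAT5 targets, 3 were called lower and 0 higher in each YFP group than in CXCR5lo PD-1lo cells (medians -0.6 and -0.71): Il2ra, Osm and Prdm1, which encodes the BCL6 antagonist BLIMP1. Prdm1 differed by -3.7 (SE 0.81, adjusted p 0.0063) and -3.57 (SE 0.81, adjusted p 0.011). The survival gene Bcl2 and the kinase gene Pim1, further listed targets, gave 0.41 (SE 0.27) and -0.34 (SE 0.3) in YFP-positive cells and did not pass. Bcl2l1, Ccnd2 and Foxp3, the rest of the list, were not called in either YFP group. Bcl2 was instead lower than in naive cells in every comparison with them, by -2.17 in CXCR5lo PD-1lo cells, by -1.77 in the YFP-positive and by -1.95 in the YFP-negative group.

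Of 8 genes listed as STAT3 targets, 8 were called higher in CXCR5lo PD-1lo than in naive cells, against 10.4% of all genes called higher, with a list median of 3.06 against 0.46 for all genes. The largest differences there were those of Il21 at 7.22, Maf at 6.42 and Rora at 3.52. The other groups gave much the same against naive cells. Called higher were 7 of 8 in YFP-positive (median 2.76), 8 in YFP-negative (3.12) and 7 in genotype cells (2.92). Of all genes, 22.4%, 16.5% and 28.4% were called higher in these comparisons. Between the gates, 2 of the 8 were called higher in each YFP group than in CXCR5lo PD-1lo cells, Il21 and Batf (1.07 and 0.98). These lists overlap with each other and with the markers of the sorted subsets, and they are described by counts and medians without a test of the list.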

How the data were processed

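The authors deposited 1 table of log2 expression values per probe set, made with GCRMA per the submitters' processing notes, for 19 arrays in 6 groups. For GCRMA, a version is not given in the sources used here. Of 45101 probe sets, 64 controls were left out. Of the rest, 34945 carried 1 symbol in the platform annotation, 932 several and 9160 none, and 34741 matched RefSeq (GRCm38.p6) by Entrez identifier with 0 symbols updated. Probe sets at log2 4 or more on at least 2 arrays were kept (22327), and each gene was read from its probe set with the highest mean, giving 9930 genes. Symbols of the array's annotation can be old.

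Group means were fitted to all 19 arrays by lmFit and eBayes of limma 3.58.1 under R 4.3.3, with Benjamini-Hochberg adjustment over all genes of a comparison. The fit was tested on simulated data. The labels name no animals behind the arrays, so the p-values reflect no more than the spread among these samples, and that spread may be technical. Replicate numbers were taken to pair samples because deviations of same-numbered arrays correlated in every pair, at 0.45 to 0.87 between the YFP groups, 0.39 to 0.68 and 0.27 to 0.39 between these and CXCR5lo PD-1lo, and 0.57 to 0.64 between genotypes. Differently numbered arrays correlated at -0.65 to 0.25 between the YFP groups. The range was -0.62 to 0.38 and -0.37 to 0.39 between these and CXCR5lo PD-1lo, and -0.63 to 0.56 between genotypes. The pairing comes from these data, not from a statement in the labels. Same-numbered YFP and CXCR5lo PD-1lo arrays also share a normalization set. Replicate 1 of the genotypes shares none, and replicates 2 and 3 of both genotypes all lie in set 6.

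The rule for named genes was the 9 members in every comparison, called genes of the pathway lists, the genes that correlate best with Cish and Socs2, and the markers that move with a result. The members and lists were chosen with earlier results of these data known. The alternatives were no filter and a stricter one, quantile normalization, median centring, the mean of a gene's probe sets, fits of only the groups compared, day as a covariate, blocks for replicate number and normalization set, an eBayes trend and leaving out each array. One of the pathway lists is not reported here.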

Additional observations from a re-analysis of the deposited data

How the results depend on the processing

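Of the 303 alternative values of the 19 called differences, 255 kept the call and 0 changed sign. Cish and Socs2 against CXCR5lo PD-1lo cells kept theirs under every alternative, leaving out single arrays included. With the replicate block (the pairing by number), 1 member was called between the YFP groups, 5 in YFP-positive and 4 in YFP-negative against CXCR5lo PD-1lo cells, and 1 between the YFP groups without pair 1. Blocking on the normalization set instead gave 2 (Socs3 and Stat5b), 5 and 6. Quantile normalization gave 1 between the YFP groups and, against naive cells, 2 in YFP-negative and 3 in genotype cells. Median centring gave 2 in YFP-negative and 1 in CXCR5lo PD-1lo cells. In CXCR5lo PD-1lo against naive cells, no filter gave 1 and fitting only the groups compared 0. Leaving out single arrays gave 1 to 4 in YFP-negative, 1 to 2 in CXCR5lo PD-1lo and 3 to 7 in genotype cells against naive cells. 

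Differences that changed sign were not called in the report. Under quantile normalization they were, against naive cells, Stat5b -0.15 and Stat6 -0.37 in CXCR5lo PD-1lo, Stat5b -0.03 in YFP-positive and Stat6 -0.43 in genotype cells, with Stat3 0.14 and Stat5a 0.07 between genotypes and Stat5b 0.12 between days. Under median centring they were Stat4 -0.11, Stat5a -0.08, Stat5b -0.33 and Stat6 -0.55 in CXCR5lo PD-1lo, Stat5b -0.16 in YFP-positive and Stat6 -0.25 in genotype cells, with Stat3 0.14 and Stat5a 0.1 between genotypes and Stat5b 0.13 between days. The mean of a gene's probe sets gave Socs3 0.08 in YFP-positive against naive cells, Stat3 0.17 between genotypes, and Stat5b 0.2 and Stat6 -0.03 between days. Day as a covariate gave Socs3 -0.06 in YFP-negative against CXCR5lo PD-1lo cells. The normalization set as a block gave Stat5b -0.01 in CXCR5lo PD-1lo and Stat6 -0.61 in genotype cells against naive cells (the latter called there, adjusted p 0.047), Stat5a 0.09 and Socs2 -0.02 between genotypes, and Stat5a 0.01 and Socs2 -0.19 between days.

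Leaving out single arrays moved the following across 0. Between the YFP groups the ranges were -0.16 to 0.07 for Stat3, -0.04 to 0.13 for Stat4, -0.25 to 0.01 for Stat5a and -0.17 to 0.03 for Socs2. Against CXCR5lo PD-1lo cells they were -0.14 to 0.12 for Stat5a and -0.07 to 0.18 for Stat5b in YFP-positive cells. In YFP-negative cells they were -0.02 to 0.24 for Stat5a and -0.13 to 0.17 for Socs3. Against naive cells they were -0.08 to 0.33 for Stat6 and -0.51 to 0.45 for Cish in CXCR5lo PD-1lo, -0.25 to 0.22 for Socs3 in YFP-positive, and -0.07 to 0.34 for Stat6 and -3.25 to 0.09 for Socs2 in genotype cells. Between genotypes they were -0.35 to 0.25 for Stat3, -0.28 to 0.13 for Stat5a, -0.44 to 0.17 for Stat5b and -0.08 to 0.34 for Socs2, and between days -0.12 to 0.07 for Stat5b and -0.07 to 0.18 for Stat6. The cause of these changes was not tested. With 2 naive arrays, and with Cish and Socs2 at the floor in the YFP groups, the number of arrays and the floor limit what these values can show.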
